A study of Homo sapiens with 22 samples.

Results

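The 9 genes described here are SOX9 and the SOX genes SOX2, SOX5, SOX6, SOX8, SOX10, SOX11, SOX12 and SOX13, looked up by symbol among the 63677 gene identifiers of the 3 deposited expression tables. They were read in 22 total RNA libraries of human neuroblastoma cell lines. SH-SY5Y is a line with neuroblast character that responds to retinoic acid, and KELLY is a neuroblastoma line with MYCN amplification. All SH-SY5Y cells, controls included, stably carried a lentiviral shRNA and had been selected with puromycin. The shRNAs sh003 were aimed at the CASC15-003 transcript, the shRNAs sh004 at the CASC15-004 transcript, and Csh was a scrambled control without a mammalian target. CASC15 is a long non-coding RNA gene of a neuroblastoma risk locus, and each of its transcripts was targeted with 2 shRNAs, named sh1 and sh2. Monolayers were collected after 7 days of retinoic acid in DMEM/F12 (day 7, given as 10 mM in the labels) or without it in serum (day 0). Retinoic acid, medium and time thus change together between day 0 and day 7, and their parts cannot be told apart. At day 7 there were 3 sh003, 2 sh004 and 2 Csh libraries, and at day 0 there were 3 sh003, 2 sh004 and 3 Csh libraries. Spheres, grown in sphere-forming medium, gave 2 sh003, 2 sh004 and 1 Csh library. KELLY cells gave 1 library with a SOX9 siRNA and 1 with a control siRNA.

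SOX proteins are transcription factors that bind and bend DNA through an HMG box related to that of SRY, and they are grouped by sequence. SOX8, SOX9 and SOX10 form group E: SOX9 acts early in the neural crest and later drives cartilage matrix genes, and SOX10 maintains crest stem cells, Schwann cell precursors and melanocytes. SOX5, SOX6 and SOX13 form group D, which lack a transactivation domain of their own and in cartilage act together with SOX9. SOX11 and SOX12 belong with SOX4 to group C, whose members act in neuronal precursors, also in the sympathetic nervous system from which neuroblastoma arises. SOX2, of group B1, keeps neural progenitors undifferentiated.

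The sequences of the shRNAs define the knockdown groups and are therefore shown, with capitals omitted since no part of a target is set apart. Each run of 21 bases occurred in CASC15 transcripts and in those of no other gene of GENCODE v29. All 4 lie on the plus strand of chromosome 6 (GRCh38) in CASC15 exons, at chr6:21668702-21668722 for sh003 sh1, chr6:21668743-21668763 for sh003 sh2, chr6:22146977-22146997 for sh004 sh1 and chr6:22146898-22146918 for sh004 sh2.
sh003 sh1: ctagcactgacctccttcatt
sh003 sh2: ctttccatcagccaacaatat
sh004 sh1: caggctgttcccagggattta
sh004 sh2: taggaataccttacatccaat

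The summed level of the CASC15 gene did not pass the test in any knockdown comparison. At day 7 it averaged 2.91 ± 0.719 RPKM in sh003 (SD, n = 3) and 1.39 ± 0.119 RPKM in sh004 (n = 2), against 3.29 ± 0.0490 RPKM in Csh (n = 2). RPKM are reads per kilobase of gene and M assigned reads. At day 0 it averaged 2.06 ± 0.549 RPKM in sh003 (n = 3) and 1.15 ± 0.133 RPKM in sh004 (n = 2), against 1.74 ± 0.564 RPKM in Csh (n = 3). Between days, CASC15 rose with batch as a block by 0.97 in Csh (limma adjusted p = 0.0182) and by 0.62 in sh003 (adjusted p = 0.0388). A gene-level value does not separate the targeted transcript from the others, so directions below are those of libraries labelled sh003 and sh004.

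Depth, counted as assigned reads, was 11.9 to 37.9 M per library in monolayers, 27.8 to 62.1 M in spheres and 24.0 to 25.5 M in KELLY. The titles number 3 monolayer batches: batch 1 held 11.9 to 16.5 M reads per library (n = 4), batch 2 27.8 to 37.9 M (n = 9) and batch 3 25.1 to 28.0 M (n = 2). Libraries of the same batch deviated together, and all sh004 monolayers are of batch 2. The culture tags of sh003 sh1 of batch 2 at day 7 and of sh003 sh2 of batch 1 at day 0 contradict the titles, which were followed. The sh004 sh2 sphere has no culture tag, and the treatment text of the KELLY samples speaks of stable shRNA cells while their titles and tags give an siRNA for SOX9 and a scrambled control. CYP26A1, a retinoic acid response gene, had 9.0 to 687 RPKM in libraries titled day 7 and 0 to 0.271 RPKM in those titled day 0. Summed with CYP26B1, RARB and MYCN, it was 1206 to 1403 RPKM in Csh and 1639 to 1816 RPKM in sh003 at day 7. In the 2 sh004 libraries of day 7 that sum was 130 and 1122 RPKM, so these libraries differed widely in it. Values in the deposited sphere table rest on library totals that rotate from gene to gene, and sphere levels below were recomputed with each library's own total. Nothing says that the libraries of a group came from separate cultures, so p-values measure the spread between these libraries, across shRNAs and batches. In bulk RNA, fewer cells of a type and less RNA per cell cannot be told apart.

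SOX11, SOX12 and SOX9 were the abundant members in SH-SY5Y cells. Median levels over the 15 monolayer libraries were 43.2 RPKM for SOX12, 40.9 RPKM for SOX11 and 22.3 RPKM for SOX9, with the group C gene SOX4 ranging from 54.3 to 135 RPKM. SOX13, SOX2 and SOX5 had medians of 1.72, 1.25 and 0.532 RPKM. SOX6 and SOX10 had medians of 0.155 and 0.0932 RPKM, and SOX8 had 0 reads in all 22 libraries, where 3 reads would have given 0.0109 to 0.0570 RPKM. SOX9 took the widest range of the 3 abundant members: its share of the summed RPKM of the members ran from 4.63% to 60.6% in monolayers, against 8.88% to 55.2% for SOX11 and 28.0% to 48.9% for SOX12. The highest SOX9 level was 21.3 times the lowest.

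SOX9, the crest and cartilage factor of group E, was at its highest in cells after 7 days of retinoic acid and in cells with CASC15 shRNAs. At day 7 the sh003 libraries had 46.5 RPKM (sh1, batch 2), 54.6 RPKM (sh2, batch 1) and 28.7 RPKM (sh2, batch 2). The sh004 libraries at day 7, both of batch 2, had 93.6 RPKM (sh1) and 27.4 RPKM (sh2), and the Csh libraries had 41.5 RPKM (batch 1) and 13.5 RPKM (batch 2). At day 0 the sh003 libraries had 20.9 RPKM (sh1, batch 3), 43.9 RPKM (sh2, batch 1) and 21.9 RPKM (sh2, batch 2). The sh004 libraries at day 0 had 12.0 RPKM (sh1) and 9.65 RPKM (sh2), and the Csh libraries had 10.4 RPKM (batch 1), 4.40 RPKM (batch 2) and 22.3 RPKM (batch 3). The top 7 of the 22 libraries were 6 day 7 monolayers and the day 0 sh003 library of batch 1. The day 7 Csh library of batch 2 stood below them, under all 3 day 0 sh003 libraries. Neighbours in this order were often of different groups, and the groups overlapped in every monolayer comparison except day 7 against day 0 in sh004.

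**Figure D1:**
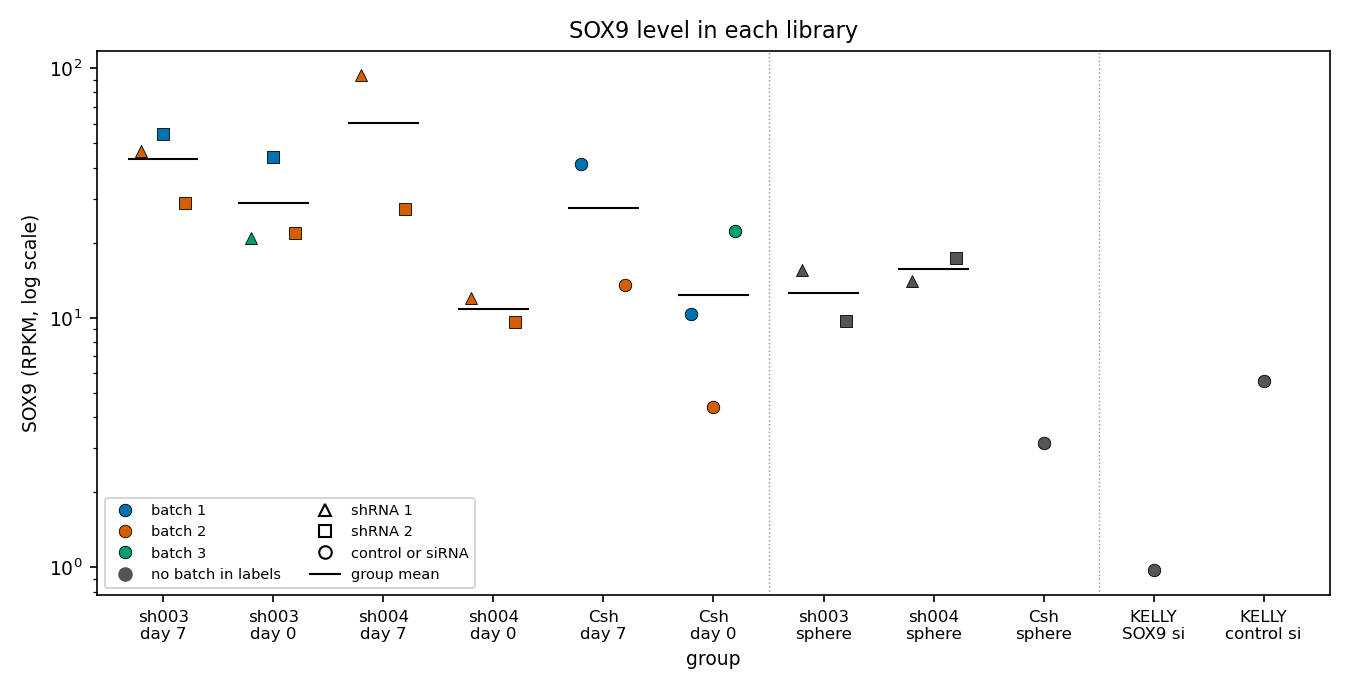
SOX9 level in each of the 22 libraries (vertical axis, RPKM, log scale) by group (horizontal axis), with colours for the batch, shapes for the shRNA and lines for group means. The levels run from 0.974 RPKM in KELLY with SOX9 siRNA to 93.6 RPKM in sh004 sh1 at day 7, and within each batch and shRNA the day 7 library lies above the day 0 library.

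Mean SOX9 was higher at day 7 than at day 0 in every group, but no single group passed the test. SOX9 averaged 43.3 ± 13.2 RPKM at day 7 and 28.9 ± 13.0 RPKM at day 0 in sh003 (SD, n = 3 each), a log2 change of 0.61 (SE 0.627, limma adjusted p = 0.716). In sh004 it averaged 60.5 ± 46.8 RPKM at day 7 and 10.9 ± 1.69 RPKM at day 0 (n = 2 each), a log2 change of 2.18 (SE 0.768, limma adjusted p = 0.442). These groups did not overlap, as was the case for 39% of genes tested in that comparison. In Csh it averaged 27.5 ± 19.8 RPKM at day 7 (n = 2) and 12.4 ± 9.13 RPKM at day 0 (n = 3), a log2 change of 1.18 (SE 0.701, limma adjusted p = 0.497). The Csh change ranged from 0.39 without the day 7 library of batch 1 to 1.97 without that of batch 2, and it was 0.62 without the day 0 library of batch 2. The sh003 change was 0.95 without the day 0 library of batch 1, and with the block it reached 1.34 without the day 0 sh2 library of batch 2. None of these passed. All changes are on the log2(RPKM + 0.5) scale, which understates those of low genes, and adjusted p-values run over 19461 genes. The sh003 change minus the Csh change was -0.57 (SE 0.940) and the sh004 change minus the Csh change was 1.00 (SE 1.04), each with an adjusted p of 1 in limma. Without the day 7 Csh library of batch 1 the first of these was 0.22, and with the block and without sh004 sh1 at day 7 the second was -0.059. The 95% intervals of these differences, -2.64 to 1.49 and -1.29 to 3.28, do not show that the groups responded alike.

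Compared within a batch and shRNA, SOX9 was higher at day 7 in 6 of 6 pairs. The differences were 0.31 and 0.38 on the log2 scale in sh003, 2.91 and 1.46 in sh004, and 1.95 and 1.52 in Csh, with a median of 1.49. The sh003 differences were the smallest, and the day 0 sh003 libraries of those batches were already at 43.9 and 21.9 RPKM. Of all genes tested, 17.7% were higher in every pair. Averaged over Csh, sh003 and sh004, a contrast added after the data were seen, the change was 1.32 (SE 0.405, limma adjusted p = 0.0502), just short of the threshold of 0.05. With batch as a block it was 1.5 (SE 0.348, adjusted p = 0.00974), where it passed. In the averaged contrast 1 of 6 members tested was called, SOX13, against 14.5% of all genes, and with the block 3 of 6, SOX9, SOX5 and SOX13, against 31.2%. SOX5 met the filter only with the day 7 sh003 libraries, where it was high, so its call is no independent support. Without the block, the call on SOX9 also appeared on leaving out the day 7 Csh library of batch 2, the day 0 Csh library of batch 3, the day 0 sh003 library of batch 1 or the day 7 sh004 sh2 library.

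Between knockdown and control cells, SOX9 was higher with CASC15 shRNAs in most comparisons, again without a call. At day 0, sh003 cells averaged 28.9 ± 13.0 RPKM and Csh cells 12.4 ± 9.13 RPKM (SD, n = 3 each), a log2 change of 1.38 (SE 0.627, limma adjusted p = 0.862). sh004 cells at day 0 averaged 10.9 ± 1.69 RPKM (n = 2), a change of 0.079 from the same Csh libraries (SE 0.701, limma adjusted p = 1). Without the day 0 Csh library of batch 2 that change was -0.48, and without sh004 sh1 it was -0.073. Both sh004 libraries are of batch 2, while the Csh average takes in all 3 batches. Against the day 0 Csh library of batch 2, at 4.40 RPKM, sh004 was higher by 1.36 (sh1) and 1.05 (sh2) on the log2 scale. At day 7 the changes from Csh were 0.80 in sh003 (SE 0.701, limma adjusted p = 0.991) and 1.08 in sh004 (SE 0.768, limma adjusted p = 0.741). At day 7, sh003 minus sh004 was -0.28 (SE 0.701, limma adjusted p = 0.871), and it turned to 0.60 without the sh004 sh1 library, which alone holds the 93.6 RPKM. The other knockdown changes kept their sign under every library left out, at 0.81 to 2.11 for sh003 at day 0, 0.011 to 1.59 for sh003 at day 7 and 0.20 to 2.47 for sh004 at day 7. The value of 0.011 was that without the day 7 Csh library of batch 2.

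No member was called in the 4 knockdown comparisons, beside 0.00514% of all genes for sh003 at day 0 and 0% in each of the others. At an unadjusted limma p under 0.05 there was 1 member, SOX11 in sh003 at day 7, and with voom on the recovered reads there was no call. Without the share of all genes under that unadjusted p, which is not given here, this count says nothing particular about the members. Each knockdown library was also set against the Csh library of its own day and batch. SOX9 was higher in 9 of these 10 pairs, by -0.094 to 2.75 on the log2 scale with a median of 1.21, and the exception was sh003 sh1 of batch 3 at day 0, with 20.9 RPKM against 22.3 RPKM in Csh. Of all genes, 5.61% were higher in 9 or more pairs and 1.89% in all 10. The 10 pairs share 5 Csh libraries and a few shRNAs, so they are not independent of each other.

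**Figure D2:**
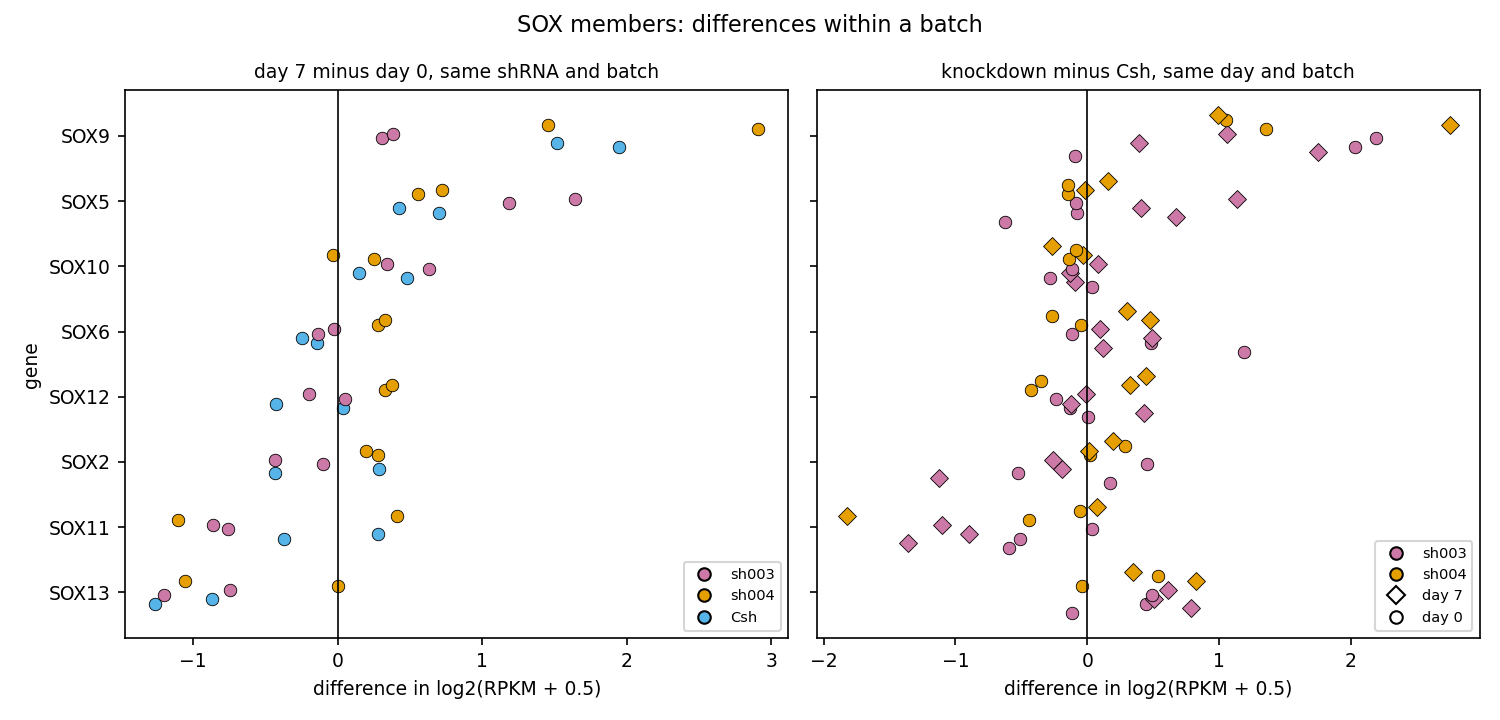
Differences in log2(RPKM + 0.5) within a batch for 8 members (rows), day 7 minus day 0 of the same shRNA on the left and knockdown minus Csh of the same day on the right, 1 point per pair, coloured by shRNA group. SOX9 and SOX5 lie above 0 in all 6 time pairs, SOX13 lies below it in 5 of 6 with the sixth at 0.0037, and SOX9 lies above 0 in 9 of 10 knockdown pairs.

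Mesenchymal transcripts also differed between the monolayers. The summed RPKM of 7 fibroblast or mesenchymal markers, led by the collagen gene COL3A1, ranged from 286 to 477 in sh003, from 86.2 to 296 in sh004 and from 180 to 272 in Csh at day 7. At day 0 the sums ranged from 187 to 388 in sh003, from 89.5 to 93.4 in sh004 and from 73.7 to 359 in Csh. COL1A2, a defining fibroblast collagen, stayed under 0.1 RPKM in all day 7 libraries, while PDGFRA and PDGFRB reached 48.9 and 35.3 RPKM. Within a batch and shRNA the mesenchymal sum, like SOX9, was higher at day 7 than at day 0, except in sh004 sh2. In Csh it was 272 at day 7 against 110 at day 0 in batch 1, and 180 against 73.7 in batch 2. It also exceeded the sum of the Csh library of the same day and batch in all knockdown libraries but sh004 sh2 at day 7. Still, the sums did not follow SOX9 throughout. At day 0 in batch 3, sh003 had 20.9 RPKM of SOX9 with a sum of 388 and Csh 22.3 RPKM with a sum of 359. The day 0 sh003 library of batch 1 had 43.9 RPKM with a sum of 215. The 2 sh004 libraries of day 7 differed in both: sh1 had 93.6 RPKM of SOX9 with a marker sum of 296, and sh2 had 27.4 RPKM with a sum of 86.2. Summed sympathoadrenal markers, such as HAND2 and DBH, were 629 RPKM in that sh1 library and 2727 RPKM in sh2. In the other monolayers they summed to 659 to 1055 RPKM in sh003 and 1120 to 1230 RPKM in Csh at day 7. At day 0 they summed to 786 to 1259 RPKM in sh003, 1367 to 1573 RPKM in sh004 and 913 to 1927 RPKM in Csh. Within batch 1 the Csh sum was 1230 RPKM at day 7 and 1731 RPKM at day 0, and within batch 2 it was 1120 RPKM at day 7 and 1927 RPKM at day 0. Within the sh003 pairs it was also lower at day 7, so that these sums were lower at day 7 in 5 of 6 pairs, all but sh004 sh2, while SOX9 was higher. The part of either marker list in the SOX9 differences was not tested. Schwann or glial markers summed to 2.19 to 5.89 RPKM, chondrocyte markers to at most 0.641 RPKM and immune markers to at most 0.701 RPKM in monolayers.

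The genes whose level followed SOX9 most closely were found by Pearson's r on log2(RPKM + 0.5) over the 15 monolayer libraries, among 12845 genes with a mean of at least 2 RPKM. They were LHFPL6 (r = 0.94, Spearman's rho = 0.93), FSTL3 (r = 0.93, rho = 0.93), RRAS (r = 0.93, rho = 0.96), MAN2B1 (r = 0.91, rho = 0.94) and GRINA (r = 0.91, rho = 0.90). FSTL3 encodes a secreted activin-binding protein, RRAS a small GTPase and MAN2B1 a lysosomal mannosidase. LHFPL6 had 12.2 RPKM in sh004 sh1 at day 7, where SOX9 peaked, and 1.86 RPKM in Csh of batch 2 at day 0, where SOX9 was lowest among monolayers. After the mean of each day and shRNA group had been subtracted, the leading genes were MRC2 (r = 0.98), a collagen-binding endocytic receptor, EVA1A (r = 0.96), ZYX (r = 0.96), a focal adhesion protein, PCOLCE (r = 0.96), an enhancer of procollagen processing, and FLJ20021 (r = 0.95). These libraries share batches and shRNAs, and the correlations are given as a description. Among the members, the raw r with SOX9 was 0.51 for SOX5, 0.34 for SOX10, 0.24 for SOX12, 0.12 for SOX6, -0.13 for SOX13, -0.24 for SOX2 and -0.45 for SOX11.

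Of the other group E genes, SOX10 was present at a trace and SOX8 was not detected. SOX10 had 1 to 22 reads per monolayer library, 0.00964 to 0.386 RPKM, so it passed no filter and was not tested. Its exons share 2.4% of their bases with POLR2F on the opposite strand, and whether the counting used strand is not given in the sources used here. SOX9-AS1, the antisense RNA at the SOX9 locus, ranged from 0.0299 to 0.449 RPKM in monolayers. ROCR, a long non-coding RNA upstream of SOX9, had 0 reads in every SH-SY5Y library.

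Among the group D partners, SOX13 was on average lower at day 7 than at day 0. SOX5 was higher within each batch and shRNA, without a call unless batch was a block. SOX13 had 1.66, 1.42 and 1.42 RPKM in sh003, 1.72 and 1.09 RPKM in sh004, and 0.852 and 0.754 RPKM in Csh at day 7. At day 0 it had 1.90, 3.90 and 2.71 RPKM in sh003, 1.72 and 2.81 RPKM in sh004, and 2.74, 1.78 and 2.10 RPKM in Csh. The day 7 libraries of sh003 and of Csh all lay below their day 0 libraries, while those of sh004 overlapped. Of all genes, 23.6% did not overlap between days in sh003 and 27.2% in Csh. Averaged over the 3 shRNA groups SOX13 fell by 0.75 on the log2 scale (SE 0.169, limma adjusted p = 0.0144), in a comparison where 5.67% of all genes were called lower. Without the day 0 sh004 sh2 library the change was -0.66 with an adjusted p of 0.0573, so the call rests in part on that library. It was 5 of 6 pairs within a batch that had less SOX13 at day 7, by up to -1.26, and sh004 sh1 had 1.72 RPKM on both days.

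In the separate groups, SOX13 averaged 0.803 ± 0.0693 RPKM at day 7 and 2.21 ± 0.484 RPKM at day 0 in Csh (SD, n = 2 and 3). That is a log2 change of -1.04 (SE 0.292, limma adjusted p = 0.139), and with batch as a block -1.16 (SE 0.260, adjusted p = 0.0299). In sh003 it averaged 1.5 ± 0.142 RPKM at day 7 and 2.84 ± 1.00 RPKM at day 0 (n = 3 each), a change of -0.70 (SE 0.261, limma adjusted p = 0.175). In sh004 the change was -0.53 (SE 0.320, limma adjusted p = 0.775). The sh003 change differed from that of Csh by 0.35 (SE 0.392) and the sh004 change by 0.52 (SE 0.433), with adjusted p-values of 1 in limma. At day 7 every knockdown library had more SOX13 than the Csh library of its batch, in 5 of 5 pairs by 0.34 to 0.83 on the log2 scale. These pairs share the 2 Csh libraries of day 7, at 0.852 RPKM (batch 1) and 0.754 RPKM (batch 2), so they are not independent. The share of all genes higher in every such pair is not given here. The averages were 1.5 ± 0.142 RPKM in sh003 (n = 3) and 1.41 ± 0.448 RPKM in sh004 (n = 2), against 0.803 ± 0.0693 RPKM in Csh (n = 2). Neither knockdown passed the test, with changes of 0.62 (limma adjusted p = 0.707) and 0.53 (limma adjusted p = 0.741). These groups did not overlap, as held for 22.8% of all genes for sh003 and 33% for sh004.

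SOX5, a group D partner of SOX9 in cartilage, was higher at day 7 in sh003 cells, the group through which it met the filter. It reached 1 RPKM in 4 monolayers, the 3 sh003 libraries of day 7 and the day 0 Csh library of batch 3. Its calls with batch as a block are therefore given as a description and are no independent support for a rise. At day 7 it had 1.14, 1.39 and 1.77 RPKM in sh003, 0.520 and 0.649 RPKM in sh004, and 0.931 and 0.532 RPKM in Csh. At day 0 it had 0.771, 0.335 and 0.226 RPKM in sh003, 0.194 and 0.196 RPKM in sh004, and 0.379, 0.269 and 1.46 RPKM in Csh. All day 7 sh003 libraries lay above all day 0 sh003 libraries, in a comparison where 23.6% of genes did not overlap, whereas in Csh the day 0 library of batch 3 was the highest of its group. The log2 change was 1.07 in sh003 (SE 0.375, limma adjusted p = 0.150), and with batch as a block SOX5 rose by 1.42 (SE 0.197, adjusted p = 0.00287), among 8.65% of all genes called higher. In sh004 it was 0.64 (SE 0.460, limma adjusted p = 0.861) and in Csh 0.15 (SE 0.420, limma adjusted p = 0.959). SOX5 was higher at day 7 in 6 of 6 pairs within a batch, by 0.42 to 1.64. With the block, the sh003 change exceeded that of Csh by 0.95 (SE 0.277, adjusted p = 1), which did not pass. The average over the 3 groups was 0.62 (SE 0.242, limma adjusted p = 0.115), and 0.85 with the block (SE 0.127, adjusted p = 0.00137).

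In the single-group comparisons of day 7 with day 0, 0 of 6 members tested were called in each group, beside 2.35% of all genes in sh003, 0.38% in sh004 and 0.956% in Csh. At an unadjusted limma p under 0.05 there were 3 members in sh003, 1 in sh004 and 1 in Csh, and voom on the recovered reads called none. The share of all genes under that unadjusted p is not given here, so these counts do not set the members apart from other genes. With the block the counts were 1 in sh003 (SOX5), 0 in sh004 and 1 in Csh (SOX13), beside 14.3%, 2.11% and 7.68% of all genes. The sh003 call is that of SOX5, which met the filter only with the day 7 libraries of that group. The exons of SOX5 and SOX13 share no bases with other genes in GENCODE v29.

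Within a batch and shRNA, SOX5 was higher at day 7 in 6 of 6 pairs and SOX13 lower in 5 of 6. The calls on SOX5 are no independent support for a rise. Promoters of both genes are shown as a description only. Each is the stretch of 250 bases before the annotated start, from RefSeq on GRCh38.p14, at chr12:24562492-24562741 on the minus strand for SOX5 and chr1:204072865-204073114 on the plus strand for SOX13. Promoter entries matched 5 of the 9 members. Capitals mark matches, on either strand, to AACAAT (a core bound by SOX proteins) or GGGCGG (a GC box), and neither overlaps the other here.
SOX5: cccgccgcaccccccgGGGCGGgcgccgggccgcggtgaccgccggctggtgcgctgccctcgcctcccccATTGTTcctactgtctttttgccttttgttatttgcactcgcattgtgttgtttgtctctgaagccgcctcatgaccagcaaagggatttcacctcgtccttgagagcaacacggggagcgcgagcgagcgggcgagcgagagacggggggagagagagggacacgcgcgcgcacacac
SOX13: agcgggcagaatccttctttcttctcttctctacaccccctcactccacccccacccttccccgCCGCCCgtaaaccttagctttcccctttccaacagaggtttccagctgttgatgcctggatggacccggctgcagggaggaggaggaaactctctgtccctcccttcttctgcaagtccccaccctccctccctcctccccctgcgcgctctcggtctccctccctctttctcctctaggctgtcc
The SOX5 stretch held 1 match to AACAAT, on the opposite strand 179 bases before the start, as did 8.98% of 35116 promoters, and 1 to GGGCGG. The SOX13 stretch held 1 match to GGGCGG, as did 42.6% of promoters, and none to AACAAT. Neither held AGGTCA, a nuclear receptor half-site found in 12.1% of promoters, or CACGTG, an E-box found in 6.34%. A match describes the letters only.

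SOX6, the remaining group D gene, was at or under 1 RPKM in all monolayers but 1. The exception was sh003 sh1 of batch 3 at day 0 with 2.01 RPKM, and the lowest library had 0.0464 RPKM. It did not reach the filter of 1 RPKM in 2 libraries and was not tested. Its exons share 1.6% of their bases with other genes.

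**Figure D3:**
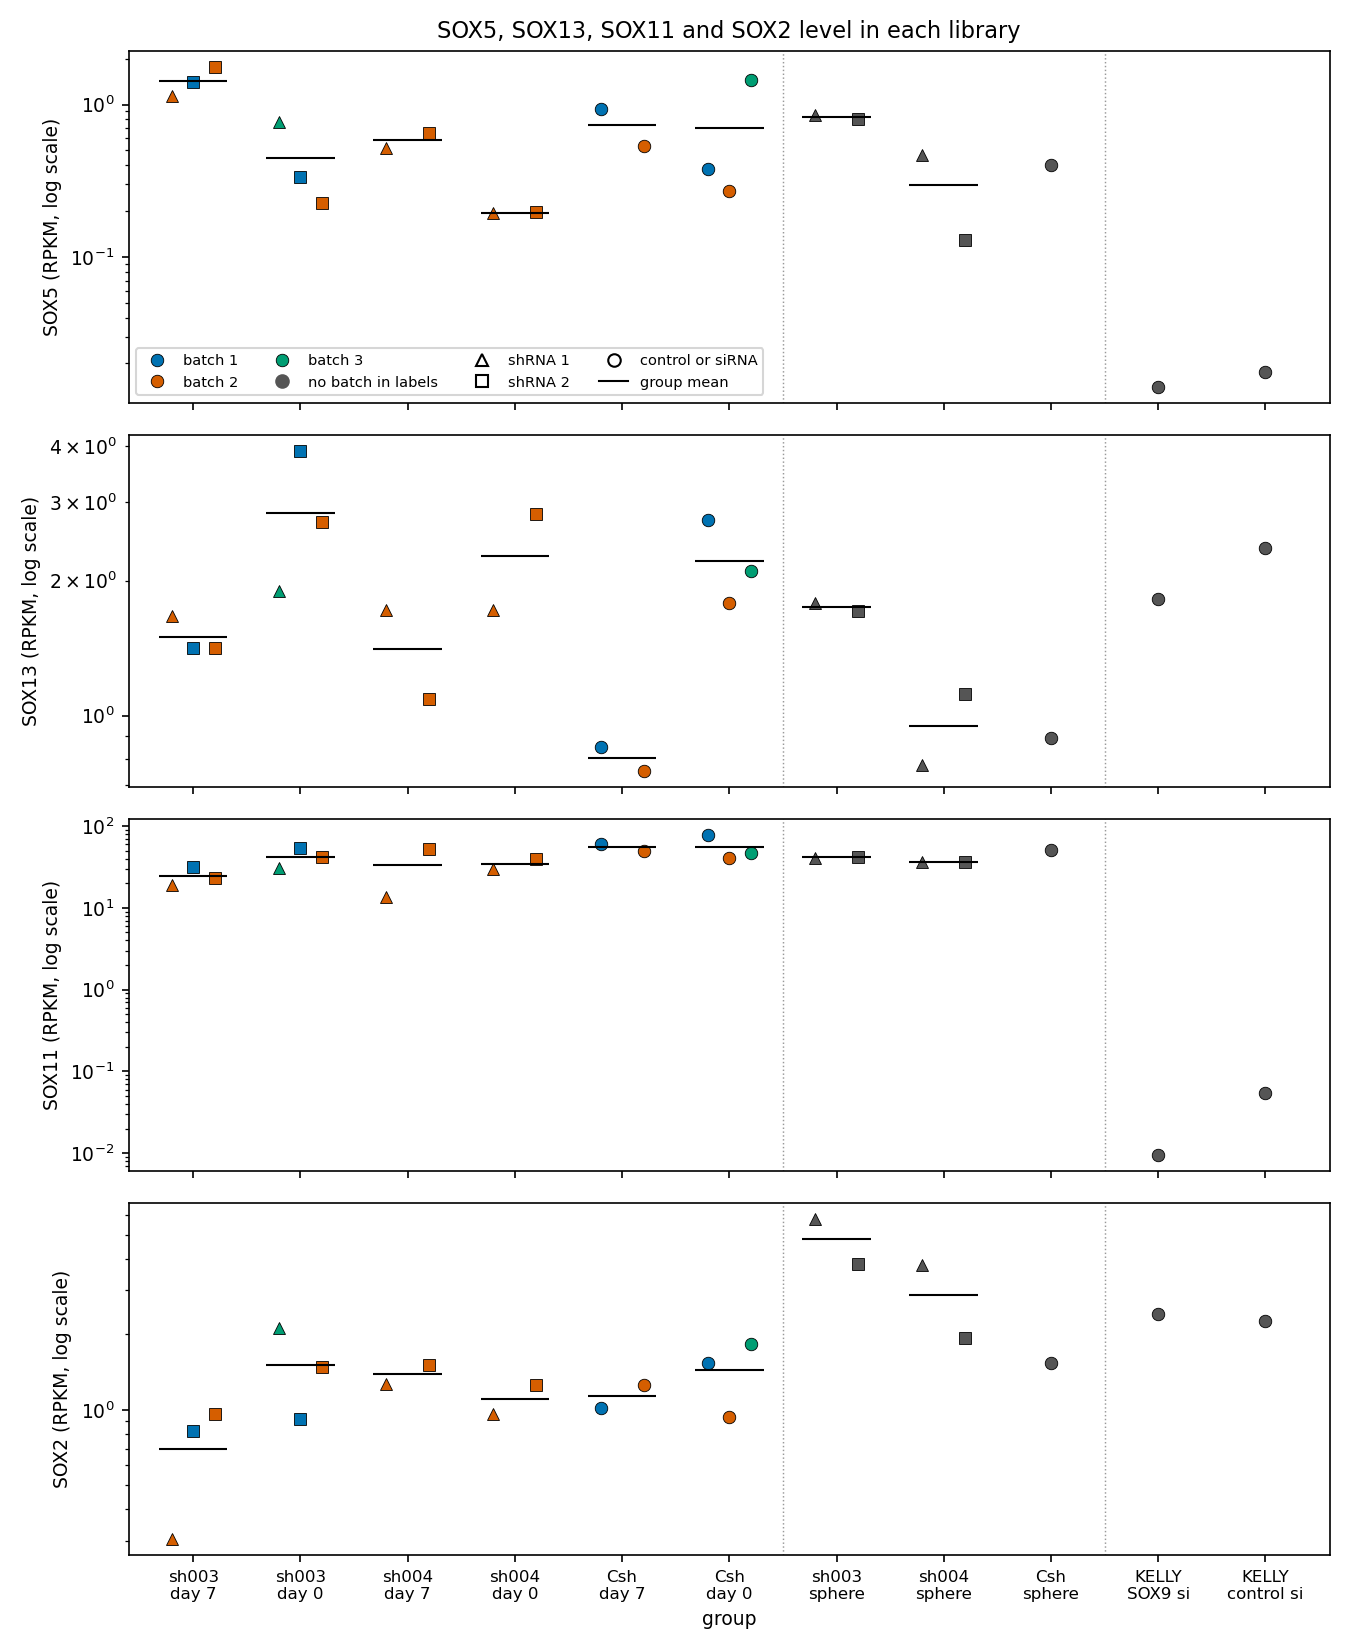
Levels of SOX5, SOX13, SOX11 and SOX2 in each of the 22 libraries (vertical axes, RPKM, log scale) by group, with colours for the batch, shapes for the shRNA and lines for group means. SOX5 of sh003 lies higher at day 7 than at day 0, SOX13 of Csh lies lower at day 7 (0.852 and 0.754 RPKM), and SOX11 is near 0 in KELLY.

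SOX11, the group C factor of immature neurons, was lower in sh003 cells at day 7, without a call. At day 7 it had 19.1, 32 and 22.9 RPKM in sh003, 13.7 RPKM (sh1) and 52.4 RPKM (sh2) in sh004, and 60.1 and 49.8 RPKM in Csh. At day 0 it had 30.6, 54.5 and 42.1 RPKM in sh003, 30.0 and 39.3 RPKM in sh004, and 77.9, 40.9 and 46.4 RPKM in Csh. All 3 day 7 sh003 libraries lay below both Csh libraries of that day, where 22.8% of genes did not overlap, and the sh004 libraries lay on either side of them. The averages at day 7 were 24.7 ± 6.63 RPKM in sh003 and 55 ± 7.31 RPKM in Csh (SD, n = 3 and 2), a log2 change of -1.17 (SE 0.482, limma adjusted p = 0.635). In sh004 the change at day 7 was -1.01 (SE 0.528, limma adjusted p = 0.701). Within batches SOX11 was lower in 8 of 10 knockdown pairs, by up to -1.82. The library with the most SOX9, sh004 sh1 at day 7, had the least SOX11, 13.7 RPKM, and the sh003 change between days, -0.76 (SE 0.431), had a limma adjusted p of 0.391.

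Early neuronal genes listed with SOX11 had mostly negative changes in knockdown cells at day 7, without a call. All 9 listed genes, such as the tubulin gene TUBB3 and the RNA-binding ELAVL3 and ELAVL4, were tested. In sh003 against Csh at day 7, 1 of 9 had a positive change and their median was -1.01, against -0.091 over all genes. ELAVL3 averaged 11.6 ± 9.04 RPKM in sh003 and 60.9 ± 11.2 RPKM in Csh (n = 3 and 2), a change of -2.58 (SE 0.877, limma adjusted p = 0.585). ELAVL4 averaged 13.4 ± 4.06 RPKM in sh003 and 41.6 ± 15.8 RPKM in Csh, a change of -1.59 (SE 0.506, limma adjusted p = 0.574). In the same comparison the 8 sympathoadrenal markers tested had a median change of -0.68, and all 6 mesenchymal markers tested had a positive change with a median of 0.94. The part of these markers in the neuronal changes was not tested. In sh004 against Csh at day 7, 2 of 9 had a positive change, with a median of -0.60 against -0.15 over all genes. None was called in any single monolayer comparison. In the averaged comparison of day 7 with day 0, PRPH, the neuronal intermediate filament peripherin, fell by 0.52 with batch as a block (limma adjusted p = 0.0474).

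SOX12, the other group C member, had the narrowest range of the 3 abundant members. It ranged from 33.5 to 49.3 RPKM in monolayers and its largest change between 2 groups of monolayers was 0.35, day 7 against day 0 in sh004 (SE 0.231, limma adjusted p = 0.815). Averages there were 45.2 ± 2.82 RPKM at day 7 and 35.3 ± 1.33 RPKM at day 0 (SD, n = 2 each). The 95% interval of that change was -0.16 to 0.86. The sh004 change minus the Csh change was 0.38 (SE 0.313, limma adjusted p = 1.00) and 0.51 with batch as a block (SE 0.228, adjusted p = 0.994).

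SOX2, the progenitor factor, was low in monolayers, 0.305 to 2.13 RPKM. In sh003 it averaged 0.697 ± 0.346 RPKM at day 7 and 1.51 ± 0.603 RPKM at day 0 (SD, n = 3 each), a log2 change of -0.75 (SE 0.309, limma adjusted p = 0.222). The lowest value, 0.305 RPKM, was sh003 sh1 of batch 2 at day 7, a library whose culture tag contradicts its title. sh004 libraries at day 7 had 1.27 and 1.51 RPKM, above all 3 sh003 libraries of that day, where 28.9% of genes did not overlap, and sh003 minus sh004 was -0.70 (SE 0.346, limma adjusted p = 0.452). SOX2-OT, the RNA whose gene contains SOX2, stayed at or under 0.192 RPKM in monolayers.

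In spheres SOX9 was higher with all 4 CASC15 shRNAs than in the only control library. The levels were 15.5 RPKM (sh1) and 9.67 RPKM (sh2) in sh003, 14.0 RPKM (sh1) and 17.3 RPKM (sh2) in sh004, and 3.15 RPKM in Csh. Relative to Csh these are 4.94, 3.07, 4.46 and 5.5 times, so the lowest knockdown library was 3 times the control. The log2 change was 1.81 in sh003 (SE 0.337, limma adjusted p = 0.167 over 14711 genes) and 2.14 in sh004 (SE 0.337, limma adjusted p = 0.0868). Neither passed, and the lone control library was assumed to vary as the knockdown libraries do. The sh004 change was called when sh003 sh1 was left out of the fit (2.14, limma adjusted p = 0.0323) or when sh003 sh2 was (2.14, adjusted p = 0.0194). Of all genes, 9.92% were above the control in all 4 knockdown spheres. The mesenchymal marker sums did not follow SOX9 here, at 81.0 and 110 RPKM in sh003, 113 and 91.9 RPKM in sh004, and 103 RPKM in Csh. The sympathoadrenal sums were 3643 and 2161 RPKM in sh003, 2723 and 3365 RPKM in sh004, and 1555 RPKM in Csh, and the part of this in the SOX9 difference was not tested.

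SOX2 was also above the control in all 4 knockdown spheres. It had 5.77 and 3.80 RPKM in sh003, 3.79 and 1.94 RPKM in sh004, and 1.53 RPKM in Csh. The log2 change was 1.36 in sh003 (SE 0.433, limma adjusted p = 0.212) and 0.67 in sh004 (SE 0.433, adjusted p = 0.390). SOX11 and SOX12 were below the control in all 4, as were 17% of genes. SOX11 had 40.4 and 42.3 RPKM in sh003, 36.5 and 36.1 RPKM in sh004, and 51.0 RPKM in Csh. SOX12 had 37.4 and 34.1 RPKM in sh003, 42.4 and 40.1 RPKM in sh004, and 56 RPKM in Csh, with changes of -0.64 (limma adjusted p = 0.218) in sh003 and -0.44 (limma adjusted p = 0.289) in sh004.

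SOX13 in spheres had 1.78 and 1.71 RPKM in sh003, 0.776 and 1.12 RPKM in sh004, and 0.893 RPKM in Csh. The sh003 and sh004 libraries did not overlap, as was the case for 75.9% of genes there. sh003 minus sh004 was 0.64 (SE 0.301, limma adjusted p = 0.132), and voom on the recovered reads called it. For SOX9 that difference was -0.33 (SE 0.275, limma adjusted p = 0.357, 95% interval -1.0 to 0.33). Of the 5 members tested in spheres, 0 were called in sh003 against Csh, 0 in sh004 against Csh and 0 in sh003 against sh004, beside 0%, 0.129% and 39.9% of all genes. At an unadjusted limma p under 0.05 the counts were 3, 1 and 0, but the share of all genes under it is not given here. These counts therefore do not set the members apart. SOX5, at 0.129 to 0.855 RPKM, SOX6 and SOX10 did not reach the filter.

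The rotating totals of the deposited sphere table changed how the members look. As deposited, SOX9 had 18.4 and 5.89 RPKM in sh003, 23.4 and 7.80 RPKM in sh004, and 4.37 RPKM in Csh. In those values sh1 stands above sh2 in both knockdowns, while with each library's own total sh004 sh2 is the highest. SOX12 as deposited reached 103 RPKM in sh004 sh1 and 78.2 RPKM in Csh, against 42.4 and 56 RPKM when recomputed. SOX2 as deposited was 8.47 RPKM in sh004 sh1, against 3.79 RPKM.

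**Figure D4:**
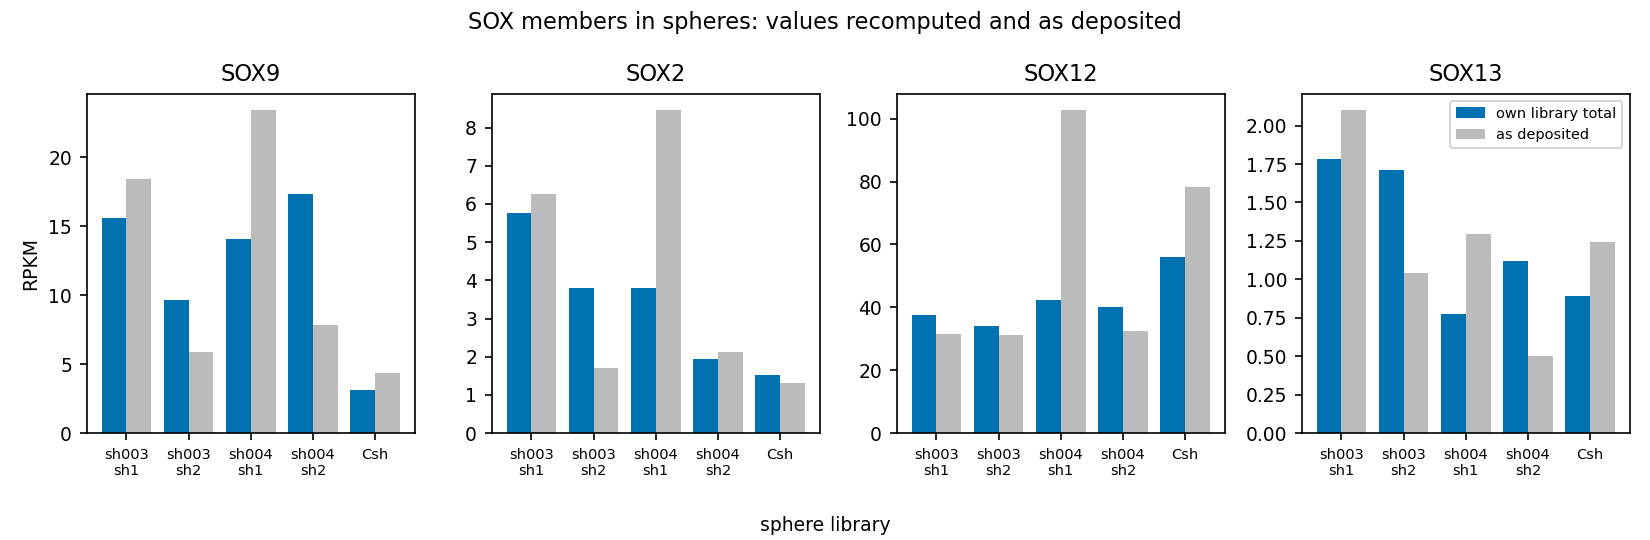
SOX9, SOX2, SOX12 and SOX13 in the 5 sphere libraries (horizontal axes), as RPKM recomputed with each library's own total (blue bars) and as deposited (grey bars), both from 0. SOX9 recomputed is 9.67 to 17.3 RPKM in the 4 knockdown spheres and 3.15 RPKM in Csh, and the deposited bars of sh004 sh1 exceed the recomputed ones for SOX9, SOX2 and SOX12.

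In KELLY cells SOX9 itself was lower with the SOX9 siRNA. SOX9 had 92 reads, 0.974 RPKM, with SOX9 siRNA and 562 reads, 5.61 RPKM, with control siRNA, which is 82.6% lower. The ratio was 0.174 with a 95% exact interval of 0.138 to 0.217, which like all read intervals here covers counting error only. The log2 ratio was -2.05, rank 21 from the lowest of 14340 genes at 1 RPKM or above in either library. There is 1 library per siRNA, so no difference has a replicate check. SOX9 was the only one of 4 members at 1 RPKM or above past a log2 ratio of 1 in either direction, beside 1.49% of genes at -1 or less and 2.5% at 1 or more. MYCN had 1052 RPKM with SOX9 siRNA and 787 RPKM with control siRNA, against 0.0831 to 4.86 RPKM in SH-SY5Y monolayers.

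The other SOX genes of KELLY at 1 RPKM or above had ratios nearer to 1, and SOX11, abundant in SH-SY5Y, was almost without reads. SOX13 had 1.82 RPKM with SOX9 siRNA and 2.36 RPKM with control siRNA, a ratio of 0.771 (95% interval 0.666 to 0.891). SOX12 had 19.3 RPKM with SOX9 siRNA and 20.4 RPKM with control siRNA, a ratio of 0.943 (0.890 to 1.00). SOX2 had 2.41 RPKM with SOX9 siRNA and 2.25 RPKM with control siRNA, a ratio of 1.07 (0.843 to 1.36). SOX11, at 36.1 RPKM or more in SH-SY5Y spheres, had 2 reads with SOX9 siRNA and 12 with control siRNA. SOX4 had 46.0 RPKM with SOX9 siRNA and 59.8 RPKM with control siRNA, a ratio of 0.768 (0.742 to 0.796). SOX7 and SOX18, group F genes known from blood vessels, were at 12.2 and 8.17 RPKM with SOX9 siRNA. With control siRNA they were at 10.4 and 9.0 RPKM. Their medians in SH-SY5Y monolayers were lower, 0.918 and 1.63 RPKM. SOX7 was at most 1.67 RPKM in monolayers and 1.26 RPKM in SH-SY5Y spheres. SOX18 reached 5.61 RPKM in monolayers and 11.7 RPKM in SH-SY5Y spheres, above its KELLY levels. Endothelial markers summed to 1.61 RPKM with SOX9 siRNA and 3.21 RPKM with control siRNA.

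Of the genes that followed SOX9 in SH-SY5Y monolayers, several were lower with SOX9 siRNA. MRC2 had 5.03 RPKM with SOX9 siRNA and 10.0 RPKM with control siRNA, a ratio of 0.504 (0.463 to 0.547). ZYX had 10.5 RPKM with SOX9 siRNA and 16.5 RPKM with control siRNA, a ratio of 0.636 (0.584 to 0.692). PCOLCE had 80.2 RPKM with SOX9 siRNA and 114 RPKM with control siRNA, a ratio of 0.706 (0.685 to 0.728). GRINA had 28.7 RPKM with SOX9 siRNA and 35.3 RPKM with control siRNA, while FSTL3, RRAS and MAN2B1 were slightly higher with SOX9 siRNA and LHFPL6 and EVA1A were near 0. The median log2 ratio was -0.25 over the 8 of these 10 genes at 1 RPKM or above, against 0.050 over all genes, and none passed a log2 ratio of 1. Of the mesenchymal markers, COL3A1 had 0.226 RPKM with SOX9 siRNA and 1.36 RPKM with control siRNA, a ratio of 0.166 (0.114 to 0.236). PDGFRB had 14.0 RPKM with SOX9 siRNA and 24.2 RPKM with control siRNA, a ratio of 0.580 (0.552 to 0.610), and COL1A1 had a ratio of 0.376. The matrix proteoglycan genes DCN and LUM had ratios of 1.41 and 1.20, and the 7 markers summed to 83.2 RPKM with SOX9 siRNA and 82.0 RPKM with control siRNA. The part of these cell type markers in the ratios was not tested.

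**Figure D5:**
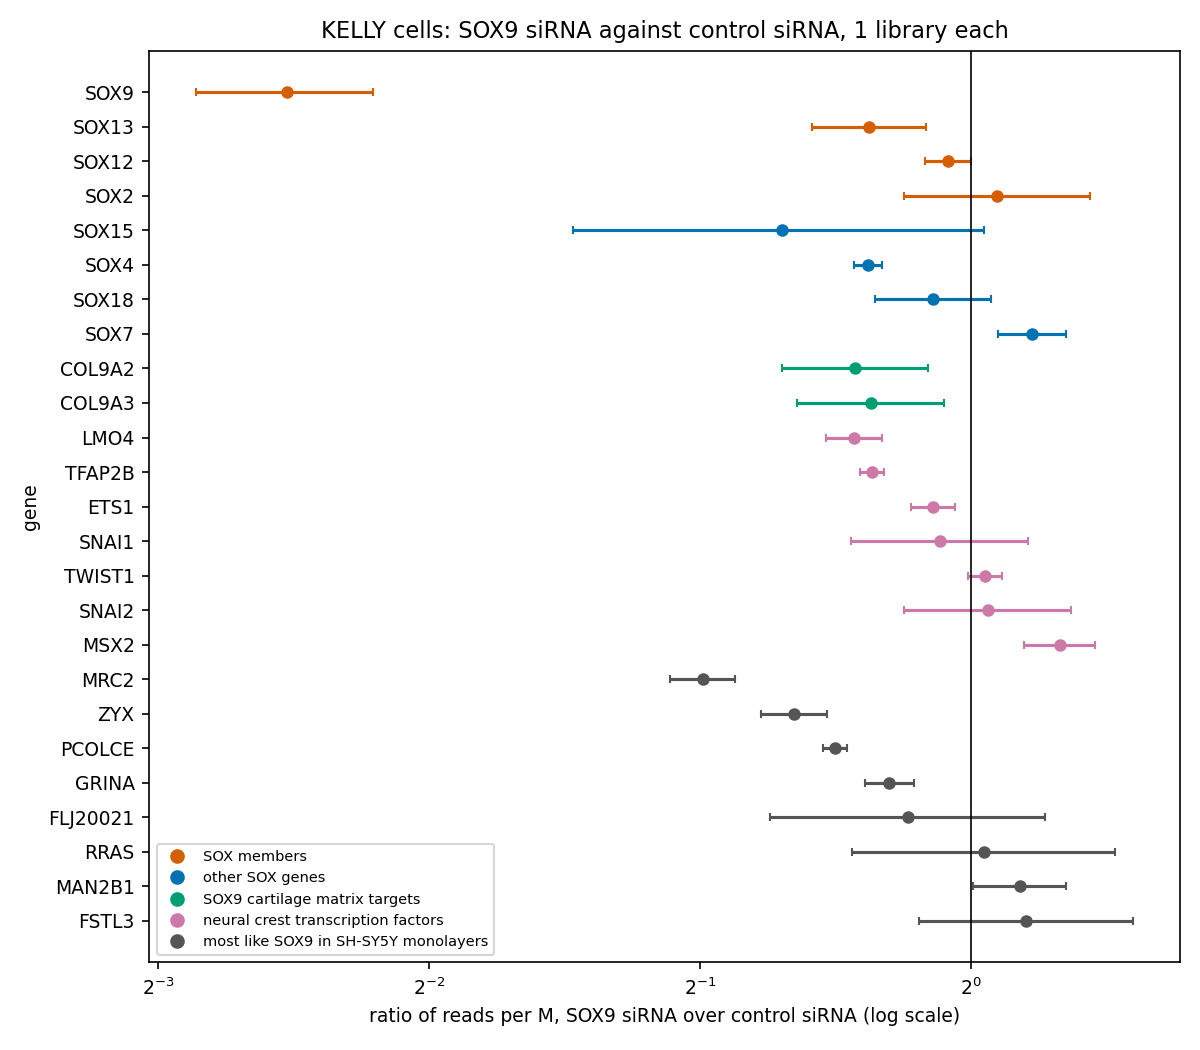
Ratio of reads per M with SOX9 siRNA over control siRNA in KELLY cells (horizontal axis, log scale) for listed genes at 1 RPKM or above (rows), with 95% exact intervals of counting error. Rows are SOX genes, cartilage genes, crest factors and the genes that followed SOX9 in monolayers. SOX9 stands at 0.174, and the next lowest of those plotted, MRC2, at 0.504.

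Most of the cartilage matrix genes that SOX9 drives with SOX5 and SOX6 in chondrocytes stayed under 1 RPKM in monolayers and in KELLY. The highest of them in monolayers was MATN3, which reached 5.32 RPKM. Of 13 listed genes 4 were tested in monolayers, and 0 were called in any planned monolayer comparison. In the averaged comparison of day 7 with day 0, COL9A3, a chain of collagen IX, fell by 0.50 (limma adjusted p = 0.0466), and with the block COL11A2 rose by 1.07 (adjusted p = 0.0143). In KELLY, COL9A2 had 1.98 RPKM with SOX9 siRNA and 2.66 RPKM with control siRNA, a ratio of 0.744 (0.617 to 0.896). COL9A3 had 1.70 RPKM with SOX9 siRNA and 2.19 RPKM with control siRNA, a ratio of 0.774 (0.641 to 0.934). COL2A1 and ACAN, the classical SOX9 targets of cartilage, had 2 and 0 reads with SOX9 siRNA and 4 and 0 with control siRNA. In spheres COL2A1 ran from 0.688 to 1.55 RPKM, COL11A2 from 1.29 to 2.94 RPKM and MATN3 from 0.238 to 5.66 RPKM. Chondrocyte markers, COL2A1 among them, summed to 2.26 RPKM in the Csh sphere, where SOX9 was lowest among spheres. The sums were 0.905 to 1.89 RPKM in sh003 spheres and 1.26 to 1.58 RPKM in sh004 spheres. Their relation to SOX9 was not tested.

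Some neural crest transcription factors other than SOX genes were lower at day 7 than at day 0. Of 9 tested genes of 13 listed, 2 were called lower in sh003, 1 in sh004 and 1 in Csh, with none higher, beside 2.35%, 0.38% and 0.956% of all genes called in either direction. Medians were -0.63, -0.59 and -0.47, against 0.051, 0.018 and 0.15 over all genes. MSX2, a homeobox gene of the crest, averaged 1.76 ± 0.367 RPKM at day 7 and 10.8 ± 1.72 RPKM at day 0 in sh003 (log2 change -2.33, limma adjusted p = 0.00152). In sh004 it averaged 1.03 ± 0.0427 RPKM at day 7 and 11.6 ± 5.27 RPKM at day 0 (-2.92, limma adjusted p = 0.00280). In Csh it averaged 1.78 ± 0.846 RPKM at day 7 and 17.2 ± 2.77 RPKM at day 0 (-3.00, limma adjusted p = 0.00111). LMO4, a LIM-only cofactor, fell by 2.15 in sh003 (limma adjusted p = 0.00791), with 0.325 ± 0.241 RPKM at day 7 and 3.10 ± 0.653 RPKM at day 0. With batch as a block the counts were 4 in sh003 (MSX2, LMO4, MSX1, TFAP2B), 2 in sh004 (MSX2, SNAI2) and 3 in Csh (MSX2, LMO4, TWIST1), beside 14.3%, 2.11% and 7.68% of all genes. In KELLY, LMO4 and TFAP2B were lower with SOX9 siRNA, at ratios of 0.742 and 0.776, and MSX2 was higher, at 1.25.

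Genes of the SOX10 program and the remaining SOX genes held few calls. Of 12 Schwann cell precursor and glial genes 5 were tested in monolayers, with 0 called in the planned monolayer comparisons. In the averaged comparison GFRA3, a receptor of the GDNF family, fell by 1.64 with batch as a block (limma adjusted p = 0.00666). Of the 10 other SOX genes 4 were tested: SOX4, SOX7, SOX15 and SOX18. In the averaged comparison SOX7 fell by 0.56 (limma adjusted p = 0.0483), and with the block it fell by 0.69 in sh003 alone (adjusted p = 0.0308). In spheres, 39.9% of genes were called between the knockdowns, and 0 when no filter on low values was set, so the calls that follow rest on that filter. SOX18 averaged 2.91 ± 2.64 RPKM in sh003 and 10.0 ± 2.36 RPKM in sh004 (SD, n = 2 each), a log2 change of -1.87 (limma adjusted p = 0.0412). In the same comparison TFAP2B, a sympathetic crest factor, averaged 59.1 ± 1.79 RPKM in sh003 and 17.0 ± 1.88 RPKM in sh004 (1.77, adjusted p = 0.00867), and MSX2 changed by -1.64 (adjusted p = 0.0141). The glial genes S100B, ITGB8 and PMP22 fell by 1.06, 1.31 and 1.20 in sh003 relative to sh004. Of the early neuronal genes, MAP2 and NEUROD1 rose by 1.29 and 0.89 and PRPH fell by 0.97 relative to sh004.

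CHD7, a chromatin remodeller needed in the neural crest, and USP36, a deubiquitinase, were read with the members. Neither was called in a planned monolayer comparison, and in the averaged one USP36 fell by 0.30 with batch as a block (limma adjusted p = 0.0252). CHD7 averaged 11 ± 1.54 RPKM in sh003 and 17.7 ± 2.02 RPKM in Csh at day 7 (n = 3 and 2), a change of -0.67 (SE 0.255, limma adjusted p = 0.602). In spheres it averaged 15.7 ± 1.46 RPKM in sh003 and 8.31 ± 0.850 RPKM in sh004 (n = 2 each), a change of 0.88 (SE 0.197, limma adjusted p = 0.0185). USP36 ranged from 8.32 to 15 RPKM in monolayers, and with SOX9 siRNA in KELLY both genes had a ratio of 1.15.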

How the data were processed

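The deposited values are RPKM, which the authors made per gene in 3 tables (monolayer, sphere and KELLY). TopHat, featureCounts and Subread were used with build hg19, per the submitters' processing notes. The library kit is stranded and depletes ribosomal RNA, per the labels' protocols, and the annotation and strand setting are not given in the sources used here. RPKM times gene length gave whole reads for every value, within 0.01 of a whole number. Sphere values fitted only with 10 library totals used in rotation, of which 5 equal those of the 5 sphere libraries, and RPKM were recomputed with each library's own total (deposited over recomputed 0.447 to 2.43).

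Of 63677 gene identifiers, 52181 matched a symbol. The tests covered the 19461 monolayer and 14711 sphere genes that reached RPKM 1 in at least 2 libraries. Values were taken as log2(RPKM + 0.5) and fitted in limma 3.58.1 (R 4.3.3, trended variance), with 1 spread for the groups of each table. A call is a Benjamini-Hochberg adjusted p under 0.05 over all genes. Depth limits the low genes: 3 reads of SOX8 correspond to 0.0109 to 0.0570 RPKM. Alternatives were other pseudocounts (0.1 and 1), filters (none, and RPKM 5), scalings, voom on recovered reads, deposited sphere values, batch 2 alone and leaving out each library. The fit was tested on simulated data. Batch numbers come from the titles. Deviations from group means of Csh and sh003 libraries correlated at 0.800 to 0.942 within a batch and -0.920 to 0.549 between batches, so batch was taken to pair libraries and a block fit was run. At day 7 the 2 Csh libraries deviate as mirror images, so the negative values there follow from the positive ones and are no separate evidence of pairing.

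The text names all 9 members, list genes called in the main or blocked fit, otherwise genes of smallest p, and the 5 genes most like SOX9 in each of 2 rankings. Members and gene lists were chosen with earlier results of these data known. Other list or marker genes named as examples were chosen after their values were seen. One marker gene of the sympathoadrenal list is not reported here and is left out of its sums.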

Additional observations from a re-analysis of the deposited data

Results flagged for a closer look

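SOX2 moved in opposite directions between day 0 and day 7 in the knockdown groups when libraries of the same shRNA and batch were compared. Day 7 minus day 0 was -0.43 and -0.10 on the log2 scale in the 2 sh003 pairs and 0.19 and 0.28 in the 2 sh004 pairs. Every pair of 1 group thus moved opposite to every pair of the other, and this difference was not tested. The flag came from looking through all tested members, and the share of all genes with such a split was not counted. In Csh the 2 pairs were -0.43 and 0.29, so the control pairs alone spanned the same range. The sh003 pair of batch 1 rests on 34 reads at day 7 and 28 reads at day 0. SOX2 stood at 0.305 to 2.13 RPKM over all monolayers.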

How the results depend on the processing

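Over 940 alternatives to 33 results, 880 stayed the same. For a log2 change that means the same direction and side of the threshold, and for a count of members called an equal or similar count. Most of these results had no call in the main fit, so staying the same mostly meant that there was still no call. Of the others 34 passed the threshold newly, 2 no longer passed, 18 moved and 6 reversed. All 6 reversals came from leaving out 1 library. SOX9 of sh004 against Csh at day 0 became -0.48 without the Csh library of batch 2 and -0.073 without sh004 sh1. SOX9 of sh003 minus sh004 at day 7 became 0.60, and 0.26 with the block, without sh004 sh1. With a library left out, that of sh004 against Csh at day 0 ranged from -0.48 to 1.14 and that of sh003 minus sh004 at day 7 from -1.50 to 0.60. The sh003 minus Csh difference of day changes ranged from -1.36 to 0.22, without the day 7 Csh library of batch 1. The sh004 minus Csh difference ranged from -0.059, with the block and without sh004 sh1 at day 7, to 1.88.

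The averaged SOX9 change between days passed with a pseudocount of 0.1 (1.35, limma adjusted p = 0.0484), a filter of RPKM 5 (1.32, 0.0387), quantile normalization (1.34, 0.0491) and voom (1.37, 0.0463). Members called there were 1, and 2 with the pseudocount of 0.1, quantile normalization or voom, 0 in batch 2 alone, and 0 to 3 with a library left out, where the SOX9 change was 1.03 to 1.80. In spheres, sh004 against Csh stayed at 2.0 to 2.29 with 0 to 1 member called, and voom called 1 member in sh003 against sh004. The KELLY log2 ratio of SOX9 was -2.41 with a pseudocount of 0.1. The cause of these moves was not tested.

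With batch as a replicate block, 1 member was called in Csh, 1 in sh003 and 3 in the averaged contrast (SOX9 1.5, limma adjusted p = 0.00974). Leaving out also the 2 libraries with contradicting tags, an alternative added after the data were seen, gave 1 in sh003 and 3 in the average (SOX9 1.52, 0.0312). SOX9 in sh004 between days ranged from 1.30 to 3.06 with a library left out, and 3.06 passed with the block (0.0199), without sh004 sh2 at day 7. The block changed no other call on a member.

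Counts over all genes depended more on the settings. The averaged contrast had 2817 calls, 6072 with the block, 1611 with quantile normalization and 953 in batch 2 alone. sh003 against sh004 spheres had 5865, 0 without a filter on low values and 366 as deposited. Between days in Csh the median change of all genes, 0.15, was 0.068 with median-ratio scaling and -0.026 with quantile normalization.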
